A study of Mus musculus with 16 samples.

Results

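SMAD mediators and feedback genes of the TGF-β pathway were followed in epidermal cells of the mouse footpad. They were 9 genes, Smad2, Smad3, Smad4, Smad6, Smad7, Ski, Skil, Tgif1 and Tgfbi, chosen by name for their roles in the pathway and found through the Ensembl identifiers of the count table. The rule that picks them uses no measured value, although they were chosen with earlier results of these data known. They are 9 of 50600 gene identifiers in the table, and all 9 were among the 22155 genes that reached a sum of 10 counts over the libraries and were tested. The study asked how dietary ligands of the aryl hydrocarbon receptor (AhR), a transcription factor that senses plant-derived and other small molecules, shape the early response of the skin to an allergen. It used 16 female C57/B6J mice, 4 in each of 4 groups, and each mouse gave 1 RNA-seq library. Feeding began when the mice were 5 wk old and lasted 3 wk, either on a purified diet low in AhR ligands (AhR-poor diet, labelled SYNTH) or on that diet supplemented with indole-3-carbinol at 200 ppm (I3C diet), a plant compound converted to AhR ligands in the stomach. The footpad was injected with 50 μl of PBS that held either nothing else (vehicle) or papain (50 μg), a protease allergen, and epidermal cells were collected 6 hr later. No group carried a transgene or a deletion. Mice of one diet shared a cage, so that diet and cage cannot be told apart. Because the cells were sequenced in bulk, fewer cells of a type and less RNA per cell cannot be told apart either. The p-values of the main test rest on the spread between mice of the same group, estimated over all 4 groups together.

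TGF-β binds a pair of receptor kinases, which phosphorylate SMAD2 and SMAD3. These receptor SMADs join SMAD4, the partner shared with the BMP branch, and enter the nucleus to activate or repress genes. The response limits itself: SMAD7 and SMAD6 are inhibitory SMADs that block the receptors, SKI and SnoN (encoded by Skil) are corepressors that bind the SMAD complex, and TGIF1 is a homeodomain corepressor of SMAD2. Smad7 and Skil are themselves well-known early targets of TGF-β, whereas Smad6 is better known as a target of BMP. Tgfbi encodes a secreted matrix protein named for its induction by TGF-β. In the epidermis, TGF-β restrains keratinocyte growth and keeps Langerhans cells in place.

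SMAD3 and SMAD4 bind the short SMAD box GTCT or its reverse complement AGAC, and the palindrome GTCTAGAC places both together. The promoters of Smad3 and Tgfbi are shown because these genes rose with papain, and that of Smad6 because it holds the palindrome (RefSeq, GRCm38.p6, 250 bases before the transcription start and the first 10 bases from it, each read 5′ to 3′ on the strand of the gene). Capitals mark GTCT or AGAC. The windows are chr9:63757985-63758244 on the minus strand for Smad3, chr13:56609336-56609595 on the plus strand for Tgfbi and chr9:64022050-64022309 on the minus strand for Smad6.
Smad3: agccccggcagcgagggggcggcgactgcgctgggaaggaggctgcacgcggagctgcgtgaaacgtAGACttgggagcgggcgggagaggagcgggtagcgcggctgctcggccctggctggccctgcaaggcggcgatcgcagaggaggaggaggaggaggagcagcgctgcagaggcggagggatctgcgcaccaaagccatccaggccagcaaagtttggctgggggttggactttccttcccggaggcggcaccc
Tgfbi: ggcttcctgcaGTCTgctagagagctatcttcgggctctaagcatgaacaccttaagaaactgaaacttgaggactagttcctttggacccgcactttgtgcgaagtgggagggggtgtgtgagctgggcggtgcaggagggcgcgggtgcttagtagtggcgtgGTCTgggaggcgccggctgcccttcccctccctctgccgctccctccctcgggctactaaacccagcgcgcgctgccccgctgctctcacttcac
Smad6: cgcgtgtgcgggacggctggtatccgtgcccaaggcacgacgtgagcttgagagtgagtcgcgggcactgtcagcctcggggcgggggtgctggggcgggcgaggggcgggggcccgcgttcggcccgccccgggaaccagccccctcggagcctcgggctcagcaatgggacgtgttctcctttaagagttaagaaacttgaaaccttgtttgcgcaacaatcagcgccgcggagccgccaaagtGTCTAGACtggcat
Smad3 held 1 box, whose first base lies 183 bases before the start. Tgfbi held 2 boxes, 239 and 85 bases before the start. In Smad6 the palindrome crosses the start, with 1 box on either side of it. A single box is common, since 84.0% of 32851 windows of this length held GTCT or AGAC on either strand and 57.0% held at least 2. The palindrome was found in 58 windows (0.177%). A match of letters describes the window and does not show that a SMAD binds there. Promoters were listed for 5 of the 9 genes.

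Each of the 9 symbols matched a single identifier, and none of these genes shared exonic bases with another annotated gene (GENCODE M21, GRCm38). Smad3 lies at chr9:63646767-63757994 and Smad6 at chr9:63953076-64022059, both on the minus strand. Smad2 lies at chr18:76241580-76310963 on the plus strand, Smad7 at chr18:75367529-75395935 on the plus strand and Smad4 at chr18:73639009-73703780 on the minus strand. Ski lies at chr4:155154075-155222592 on the minus strand, Skil at chr3:31095058-31122577 on the plus strand, Tgif1 at chr17:70844205-70853546 on the minus strand and Tgfbi at chr13:56609523-56639562 on the plus strand. Each position spans the whole gene, introns included, and each value below is a count over its exons.

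Library totals ranged from 22500821 to 51844375 counts, and 3 counts, taken as the detection floor, equalled 0.0569 to 0.130 CPM (the count scaled to the size of its library), and this floor reflects counting error alone. The codes of T112 (AhR-poor diet, papain) and T106 (I3C diet, papain) break the run of codes in their groups, and their fibroblast markers summed to 284.7 and 27.0 CPM. The other papain libraries had 523.2 to 687.2 CPM on the AhR-poor and 11.9 to 21.9 CPM on the I3C diet. Thus T112 was the lowest and T106 the highest of its group. The vehicle libraries had 112.8 to 194.6 and 20.3 to 25.1 CPM on these diets. Library T108 (I3C diet, vehicle) stood apart for Skil and Tgif1, and values that it moved most are also given without it. All 9 genes lay above this floor in every library, with between 75 and 39025 counts each. Per kilobase of exon, Tgfbi was the highest of the 9, at 156 CPM per kb on average over the 16 libraries. Ski followed at 29.9 CPM per kb, Tgif1 at 23.0 and Smad4 at 19.4. Smad7 stood at 14.1 CPM per kb, Skil at 9.37, Smad2 at 7.68, Smad3 at 5.26 and Smad6 at 1.26. The order of neighbours held in 16 of 16 libraries for Tgfbi over Ski, Smad4 over Smad7, Smad7 over Skil, and Smad3 over Smad6. It was less fixed elsewhere: Ski exceeded Tgif1 in 12 of 16 libraries, Tgif1 exceeded Smad4 in 9, Skil exceeded Smad2 in 13 and Smad2 exceeded Smad3 in 14. Tgif1 and Smad4 were thus not separated by level.

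**Figure D1:**
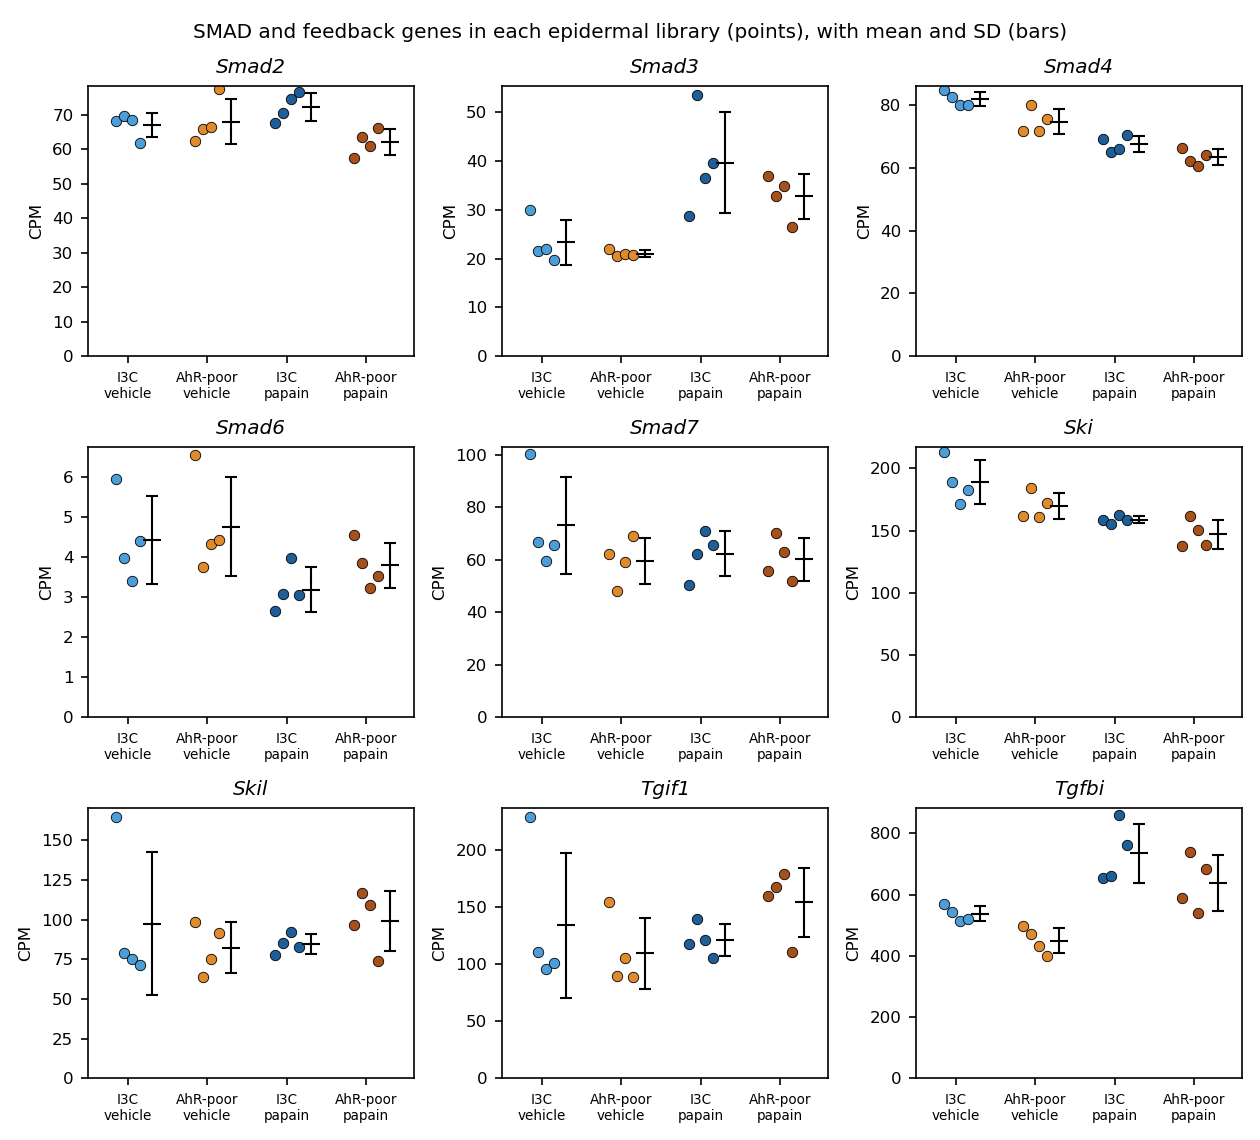
Expression of the 9 genes in each of the 16 libraries, in CPM (vertical axis from 0), by diet and injection, with each point a mouse and the bars the mean and SD of 4 mice. Smad3 and Tgfbi sit higher and Smad4 lower with papain on both diets, while library T108 stands far above its group for Skil and Tgif1.

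Papain was compared with vehicle within each diet, which shows how the SMAD machinery stood 6 hr after the allergen. The same 3 genes passed the test on both diets, in the same direction. Smad3, which carries the TGF-β signal to DNA, rose 1.56-fold on the AhR-poor diet and 1.70-fold on the I3C diet. Tgfbi rose 1.42-fold and 1.37-fold, and Smad4, the common partner, fell to 0.848 and 0.826 of its level. The inhibitory SMADs, the corepressors and Smad2 did not pass on either diet. A gene passed at an adjusted p below 0.01 in edgeR's quasi-likelihood test, and among all genes 22.5% did so on the AhR-poor diet (12.4% higher and 10.1% lower) and 25.7% on the I3C diet (12.7% higher and 12.9% lower), so that 3 of 9 (2 higher and 1 lower) is close to the background. In the same direction on both diets, 15.6% of all genes passed. These shares include genes of very low level. Of genes with at least 1 CPM on average, as all 9 have, 33.4% passed on the AhR-poor and 39.5% on the I3C diet. The share of such genes passing in the same direction on both diets was not computed. The log2 fold changes of the 9 ran from -0.32 to 0.64 on the AhR-poor diet and from -0.47 to 0.76 on the I3C diet, so that no member also reached a log2 fold change above 1 or below -1, against 8.46% and 8.98% of all genes. The comparisons of papain with vehicle on the 2 diets have no library in common.

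Smad3 stood at 22.01, 20.5, 20.9 and 20.7 CPM in the 4 vehicle mice on the AhR-poor diet and at 36.9, 32.7, 34.9 and 26.4 CPM in the 4 papain mice. Every papain library was above every vehicle library. With the I3C diet it stood at 30.0, 21.5, 21.9 and 19.7 CPM with vehicle and at 28.7, 53.6, 36.5 and 39.5 CPM with papain. Here the groups overlapped, because the highest vehicle library (T108) exceeded the lowest papain library (T106). The log2 fold change of Smad3 was 0.64 (SE 0.16, edgeR adjusted p = 0.00522) on the AhR-poor diet and 0.76 (SE 0.16, edgeR adjusted p = 0.00111) on the I3C diet. The latter call held in all 24 alternative fits (adjusted p from 3.16e-05 to 0.00661 in edgeR or DESeq2). On the AhR-poor diet it was lost without T104, T105, T107, T101, T102 or T103 in turn, with log2 fold changes of 0.57 to 0.65 and edgeR adjusted p of 0.0122 to 0.0216, and over all 24 alternatives the adjusted p ran from 3.77e-04 to 0.0216.

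Tgfbi, the most abundant of the 9, stood at 496.5, 469.9, 432.2 and 400.9 CPM with vehicle and at 587.6, 740.2, 539.0 and 682.0 CPM with papain on the AhR-poor diet. Mice on the I3C diet had 569.1, 542.3, 513.8 and 521.9 CPM with vehicle and 655.2, 660.6, 859.9 and 762.5 CPM with papain. The papain libraries were above all vehicle libraries on both diets. The log2 fold change was 0.50 (SE 0.10, edgeR adjusted p = 9.79e-04) on the AhR-poor diet and 0.45 (SE 0.10, edgeR adjusted p = 0.00202) on the I3C diet. Tgfbi passed in all 24 alternatives on each diet.

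Smad4 moved the other way and within narrow limits. It stood at 71.7, 79.8, 71.6 and 75.6 CPM with vehicle and at 66.4, 62.0, 60.7 and 64.2 CPM with papain on the AhR-poor diet. Mice on the I3C diet had 84.8, 82.4, 80.1 and 80.1 CPM with vehicle and 69.0, 65.1, 65.8 and 70.3 CPM with papain. All papain libraries were below all vehicle libraries of the same diet. Smad4 fell by 0.24 (SE 0.06, edgeR adjusted p = 0.00434) on the AhR-poor diet and by 0.28 (SE 0.06, edgeR adjusted p = 0.00112) on the I3C diet, both on the log2 scale. The call on the I3C diet held in all 24 alternatives. That on the AhR-poor diet was lost in 8 alternatives, with an adjusted p of 0.0106 to 0.0197 within a range of 2.56e-04 to 0.0197 over all 24, and among these were the fits without T105, T107, T101 or T103. Without any 1 of these 4 libraries, Tgfbi alone of the 9 genes passed on the AhR-poor diet.

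Ski, the corepressor with the highest level per kilobase, lay just outside the threshold. In mice on the I3C diet it stood at 213, 189, 171 and 183 CPM with vehicle and at 159, 155, 162 and 159 CPM with papain. The groups did not overlap, and the log2 fold change was -0.25 (SE 0.08, edgeR adjusted p = 0.0131). With library sizes unscaled, with edgeR's filterByExpr, with DESeq2 or without T110, Ski passed (adjusted p from 0.00291 to 0.00902, within 0.00291 to 0.0533 over all alternatives). On the AhR-poor diet Ski stood at 162, 184, 161 and 173 CPM with vehicle and at 137, 162, 150 and 138 CPM with papain, a log2 fold change of -0.21 (SE 0.08, edgeR adjusted p = 0.0401) with overlapping groups. Groups did not overlap for 3 members on either diet, against 33% of all genes on the AhR-poor diet and 33.4% on the I3C diet. These were Smad3, Smad4 and Tgfbi on the AhR-poor diet and Smad4, Ski and Tgfbi on the I3C diet. For each of them the two-sided exact permutation test of 4 against 4 libraries gave its smallest possible p of 0.0286, which came to 0.114 when adjusted over the 36 such tests.

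**Figure D2:**
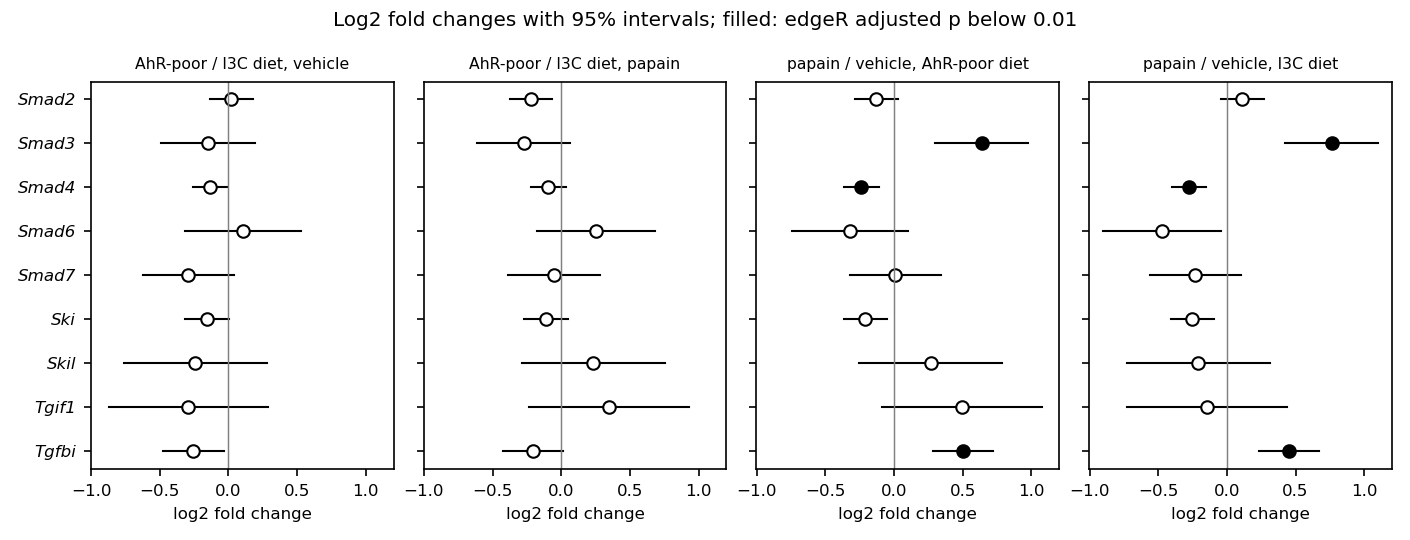
Log2 fold changes (horizontal axis) of the 9 genes in the 4 comparisons, from edgeR, with 95% confidence intervals, filled where the adjusted p is below 0.01. Smad3 and Tgfbi lie to the right of 0 and Smad4 to the left in both comparisons of papain with vehicle, and no member is filled in the comparisons of diets.

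Of the members that did not pass, Smad2 had log2 fold changes of -0.13 on the AhR-poor diet and 0.11 on the I3C diet, with 95% intervals of -0.29 to 0.03 and -0.05 to 0.27. Of the receptor SMADs, Smad3 thus passed on both diets and Smad2 on neither, although the change of one was not tested against that of the other. Smad7, the TGF-β-induced inhibitor, had log2 fold changes of 0.01 (95% interval -0.32 to 0.34) on the AhR-poor diet and -0.23 (95% interval -0.56 to 0.10) on the I3C diet, the latter -0.04 without T108. Smad6, the least abundant of the 9, had group means of 4.77 CPM ± 1.23 (SD, n = 4) with vehicle and 3.80 CPM ± 0.56 (SD, n = 4) with papain on the AhR-poor diet. With the I3C diet its means were 4.44 CPM ± 1.10 (SD, n = 4) with vehicle and 3.20 CPM ± 0.57 (SD, n = 4) with papain. Its log2 fold change was -0.32 (edgeR adjusted p = 0.247) on the AhR-poor diet and -0.47 (edgeR adjusted p = 0.0812) on the I3C diet, the latter -0.30 (edgeR adjusted p = 0.287) without T108, within a range of 0.0371 to 0.287 over all alternatives. The groups of all 3 genes overlapped on both diets.

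The corepressor genes Skil and Tgif1 had the widest spread of the 9 among vehicle mice on the I3C diet, with coefficients of variation of 46.1% and 47.4%, and 7.30% and 11.6% with papain on that diet. Skil stood at 98.7, 63.7, 75.3 and 91.5 CPM with vehicle and at 96.8, 116.7, 109.1 and 74.0 CPM with papain on the AhR-poor diet. Mice on the I3C diet had 164.6, 78.9, 75.2 and 71.1 CPM with vehicle and 77.6, 85.1, 92.4 and 82.6 CPM with papain. The highest of these values belongs to library T108, which was the highest of its group for 8 of the 9 members. Tgif1 stood at 154.2, 89.3, 105.2 and 88.8 CPM with vehicle and at 159.2, 167.1, 179.1 and 110.8 CPM with papain on the AhR-poor diet. Mice on the I3C diet had 228.7, 110.4, 95.7 and 100.8 CPM with vehicle and 117.8, 139.7, 121.4 and 105.6 CPM with papain. On the AhR-poor diet 3 of the 4 papain libraries were above every vehicle library, and the log2 fold change of Tgif1 was 0.49 (SE 0.27, edgeR adjusted p = 0.187). For the I3C diet it was -0.14 (SE 0.27, edgeR adjusted p = 0.731).

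Library T108 exceeded the mean of the other 3 vehicle mice on the I3C diet 2.24-fold for Tgif1, 2.19-fold for Skil, 1.57-fold for Smad7, 1.52-fold for Smad6 and 1.42-fold for Smad3. For Ski the ratio was 1.18, and for Smad2, Smad4 and Tgfbi it was 1.02, 1.05 and 1.08. In the vehicle group on the AhR-poor diet, T100 was the highest library for 5 members, 1.63-fold above the mean of the others for Tgif1, 1.57-fold for Smad6 and 1.28-fold for Skil. Without T108, the log2 fold change with papain on the I3C diet turned to 0.17 for Skil and to 0.24 for Tgif1, with edgeR adjusted p of 0.420 and 0.360. Without T100 and T108, a choice made after seeing the data and resting on Tgif1 itself, Tgif1 passed on the AhR-poor diet (log2 fold change 0.71, edgeR adjusted p = 0.00110). Without T100 alone it did not (log2 fold change 0.71, edgeR adjusted p = 0.0611), and the adjusted p ran from 0.00110 to 0.352 over all alternatives. What sets T108 apart was not tested.

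Skil went together with Tgif1 and with Smad7 from mouse to mouse, which is given as a description, since the 16 libraries share their depth and their groups. Pearson's r of log2 CPM between Skil and Tgif1 was 0.88 over the 16 libraries and 0.88 after the mean of each group was subtracted, and 0.78 of this kind without T108. For Smad7 and Skil these values were 0.78, 0.89 and 0.83, and for the third pair, Smad7 and Tgif1, they were lower, at 0.53, 0.67 and 0.47. Smad3 and Tgfbi showed the opposite pattern, with r of 0.72 over all libraries and -0.07 within groups, so that the pair differed alike between groups but not between mice of a group. Smad4 and Ski had r of 0.84 over all libraries and 0.31 within groups.

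**Figure D3:**
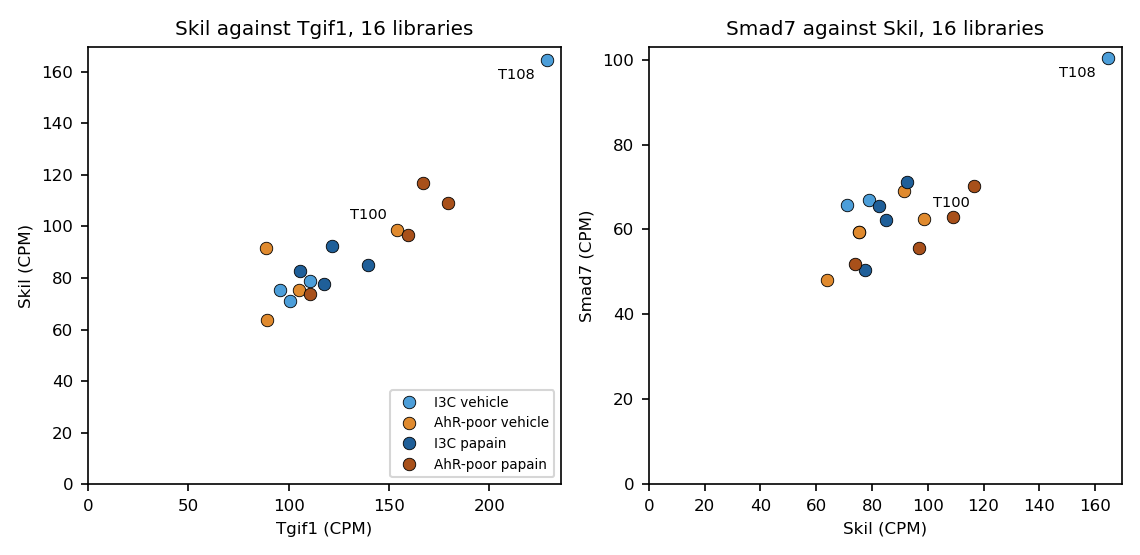
Skil against Tgif1 and Smad7 against Skil in the 16 libraries, in CPM on both axes, each point a mouse coloured by diet and injection. The points of all 4 groups lie along a common rise, with T108 at its upper end in both panels.

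The AhR-poor diet was compared with the I3C diet, first with vehicle. In these mice no SMAD or feedback gene passed the test, and 7 of the 9 log2 fold changes were below 0, of which those of Skil and Tgif1 turned to 0.13 and 0.10 without T108 and that of Smad7 went from -0.29 to -0.10. Tgfbi was at 401 to 497 CPM on the AhR-poor diet and at 514 to 569 CPM on the I3C diet, and Smad4 at 71.6 to 79.8 and 80.1 to 84.8 CPM. For both genes the 4 mice on the AhR-poor diet lay below the 4 on the I3C diet. By edgeR 0 of 9 members passed, against 1.72% of all genes, and 0 passed by DESeq2. At an unadjusted p below 0.05 there were 2, Tgfbi (log2 fold change -0.25, unadjusted p = 0.0250 in edgeR) and Smad4 (log2 fold change -0.13, unadjusted p = 0.0390 in edgeR), against 12.5% of all genes. Groups without overlap were found for these 2 members and for 8.12% of all genes, each of the 2 with the smallest p the exact permutation test allows (0.0286). The log2 fold changes of all 9 ran from -0.29 to 0.10 and their 95% intervals from -0.87 to 0.53, the widest being those of Skil and Tgif1. Smad2 had the value closest to 0, 0.02 with an interval of -0.13 to 0.18.

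Between the diets with papain, no SMAD or feedback gene passed either. Smad2 gave the lowest adjusted p, at 57.6, 63.6, 61.1 and 66.2 CPM on the AhR-poor diet and 67.7, 70.5, 74.7 and 76.6 CPM on the I3C diet. All mice on the AhR-poor diet were below all mice on the I3C diet, and the log2 fold change was -0.22 (SE 0.07, edgeR adjusted p = 0.0429), which did not pass. The adjusted p of Smad2 ran from 0.0211 to 0.261 over the alternatives. By edgeR 0 of 9 members passed, against 11.2% of all genes, and 0 passed by DESeq2. At an unadjusted p below 0.05 Smad2 was the only member, against 32% of all genes, and it was also the only member whose groups did not overlap, against 24.9%. The values of the others were 0.35 (95% interval -0.23 to 0.93) for Tgif1, 0.26 (-0.17 to 0.69) for Smad6, 0.23 (-0.29 to 0.75) for Skil, -0.27 (-0.61 to 0.06) for Smad3 and -0.20 (-0.42 to 0.01) for Tgfbi, all log2 fold changes. Those of Ski, Smad4 and Smad7 lay between -0.11 and -0.05. These comparisons use the same libraries as those of papain with vehicle.

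Whether papain acted differently on the 2 diets was tested as the interaction of diet and injection, coded as the papain change on the AhR-poor diet minus that on the I3C diet. By edgeR 0 of 9 members passed, against 0.0181% of all genes, and 0 passed by DESeq2. At an unadjusted p below 0.05 there was 1 member, Smad2 (difference of log2 fold changes -0.24, unadjusted p = 0.0338 in edgeR), against 13.5% of all genes. The difference was -0.13 (95% interval -0.60 to 0.35) for Smad3, 0.05 (-0.26 to 0.36) for Tgfbi and 0.04 (-0.14 to 0.21) for Smad4. For Tgif1 it was 0.64 (95% interval -0.18 to 1.46) and for Skil 0.48 (-0.26 to 1.21). Without T108 the differences were 0.25 for Tgif1, 0.10 for Skil and -0.27 for Smad3. The intervals for Tgif1 and Skil were thus the widest of these 5 and that for Smad4 the narrowest.

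Around these 9 genes, 73 further genes of the pathway were followed in 8 lists, and 72 of them were tested. With papain, 12 rose and 7 fell on the AhR-poor diet (26.4% of those tested) and 12 rose and 15 fell on the I3C diet (37.5%). Of all genes with at least 1 CPM on average, 33.4% and 39.5% passed in these comparisons. Of the 72, the AhR-poor diet had 4 at higher levels with vehicle (5.56% passing in all), and 11 at higher and 6 at lower levels with papain (23.6%), against 1.89% and 13.3% of all genes with at least 1 CPM. In the interaction of diet and injection 0 of the 72 passed, against 0.0307% of all genes with at least 1 CPM. A gene below that passed with papain on a single diet is thus not shown to respond differently on the other.

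The receptor SMADs of the BMP branch, Smad1, Smad5 and Smad9, did not pass in any comparison. Of 13 genes for enzymes that modify SMADs or their partners, 1 rose and 2 fell with papain on the AhR-poor diet, and 1 rose and 4 fell on the I3C diet. The gene that rose on both was Nedd4l, a ubiquitin ligase that acts on SMAD2 and SMAD3, with log2 fold changes of 0.82 on the AhR-poor and 1.17 on the I3C diet. Nedd4l went from 29.1 CPM ± 1.56 to 51.3 CPM ± 4.27 and from 31.5 CPM ± 6.18 to 71.0 CPM ± 13.6 (SD, n = 4 each). Wwp1, another ubiquitin ligase, fell by 0.59 and Ppm1a, a phosphatase of the receptor SMADs, by 0.38 on the AhR-poor diet, in log2 units, and both also fell on the I3C diet, by 0.39 and 0.30. With the I3C diet Usp11, a deubiquitinase, fell by 1.39 and Ppp1r15a, a phosphatase subunit that joins SMAD7 at the receptor, by 0.86 in the same units.

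Of 9 adaptors and inhibitors that act between receptors and SMADs, 3 rose and 1 fell with papain on the AhR-poor diet, and 3 rose and 6 did not pass on the I3C diet. Dab2, an endocytic adaptor, rose on the AhR-poor diet from 3.12 CPM ± 0.84 to 13.0 CPM ± 5.48 (SD, n = 4 each). With the I3C diet Dab2 was at 0.912 CPM ± 0.294 with vehicle and 0.347 CPM ± 0.186 with papain (SD, n = 4 each). This lower level did not pass (edgeR adjusted p = 0.0146), nor did the interaction for Dab2 (edgeR adjusted p = 0.0128). On the AhR-poor diet Fkbp1a, whose product keeps the type I receptor silent, rose by 0.48 on the log2 scale and Zfyve9, the SMAD anchor SARA, fell by 0.46. With the I3C diet Strap, Ldlrad4 and Hgs rose by 0.45, 0.45 and 0.33 on the log2 scale, and Strap also rose on the AhR-poor diet, by 0.39. Of 11 tested coactivators and DNA-binding partners, 3 rose on each diet and 8 did not pass. Kat2a, an acetyltransferase, was among them on both, with log2 fold changes of 0.42 on the AhR-poor and 0.53 on the I3C diet. The others were Runx2 (1.07) and Runx3 (0.90) on the AhR-poor diet, and Runx1 (0.80) and Smarca4 (0.42) on the I3C diet, given as log2 fold changes. Their values on the other diet, which did not pass, were 0.17 for Runx2, 0.42 for Runx3, 0.70 for Runx1 and 0.09 for Smarca4. Of 8 corepressor partners of SKI, SnoN and TGIF, 1 fell on the I3C diet, Hdac1, by 0.29 on the log2 scale.

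The target genes of TGF-β were split. The 4 genes known to be repressed by TGF-β in epithelial cells, Id1, Id2, Id3 and Myc, all fell with papain on the I3C diet, with a median log2 fold change of -1.14 beside -0.04 for all genes. Id1, Id2 and Id3 encode inhibitors of helix-loop-helix factors and are also known as targets of BMP. Id1 went from 258 CPM ± 41.6 to 105.3 CPM ± 17.3, Id2 from 41.8 CPM ± 8.15 to 18.1 CPM ± 3.43 and Id3 from 281 CPM ± 67.9 to 133 CPM ± 11.9 (SD, n = 4 each). On the AhR-poor diet 2 of the 4 fell, Id1 from 233 CPM ± 58.3 to 123 CPM ± 7.95 and Myc from 338 CPM ± 51.8 to 210 CPM ± 16.1 (SD, n = 4 each). Of 14 genes known to be induced by TGF-β in epithelial cells, 2 rose and 12 did not pass on the AhR-poor diet, and 3 rose and 4 fell on the I3C diet. Itgb6, whose integrin activates latent TGF-β, rose by 1.17 and Ccn2, a matricellular factor, fell by 1.70 on the I3C diet (log2). Tgm2, a transglutaminase, rose on the AhR-poor diet from 7.49 CPM ± 2.30 to 64.8 CPM ± 38.0 (SD, n = 4 each).

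Of 10 matrix and contractile genes known as TGF-β targets in fibroblasts, 3 rose and 1 fell with papain on the AhR-poor diet, and 2 rose and 2 fell on the I3C diet. Acta2, encoding smooth muscle actin, rose on both, by 2.35 and 1.90 on the log2 scale. Timp1, a metalloproteinase inhibitor, rose from 0.365 CPM ± 0.076 to 43.1 CPM ± 17.5 on the AhR-poor diet (SD, n = 4 each). With the I3C diet Timp1 was near the detection floor with vehicle (0.0971 CPM ± 0.0145) and at 1.60 CPM ± 0.39 with papain (SD, n = 4 each). Col7a1, the anchoring fibril collagen, fell by 0.90 on the AhR-poor and by 0.96 on the I3C diet, on the log2 scale. Lox, a collagen crosslinking enzyme, rose from 0.670 CPM ± 0.199 to 11.1 CPM ± 6.69 on the AhR-poor diet and lay at or under the floor on the I3C diet.

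With vehicle, the list genes that passed were all at higher levels on the AhR-poor diet, and were Dab2, Lox, Fn1 and Col5a1. Fn1, encoding fibronectin, was at 30.7 CPM ± 6.83 on the AhR-poor and 2.96 CPM ± 0.88 on the I3C diet, and Col5a1 at 8.34 CPM ± 1.95 and 1.87 CPM ± 0.38 (SD, n = 4 each). With papain, 6 of the 10 matrix genes had higher levels on the AhR-poor diet, and Fn1 reached 116 CPM ± 38.5 there and 5.29 CPM ± 4.501 on the I3C diet (SD, n = 4 each). The AhR-poor diet with papain also had Runx2 and Runx3 higher by log2 fold changes of 1.40 and 1.36, Tgm2 by 5.28 and Ccn2 by 2.61. Lower there were Ldlrad4 by a log2 fold change of -0.63, Ncor1 by -0.54, Jag1 by -0.52, Tgfbrap1 by -0.50 and Smarca4 by -0.35.

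**Figure D4:**
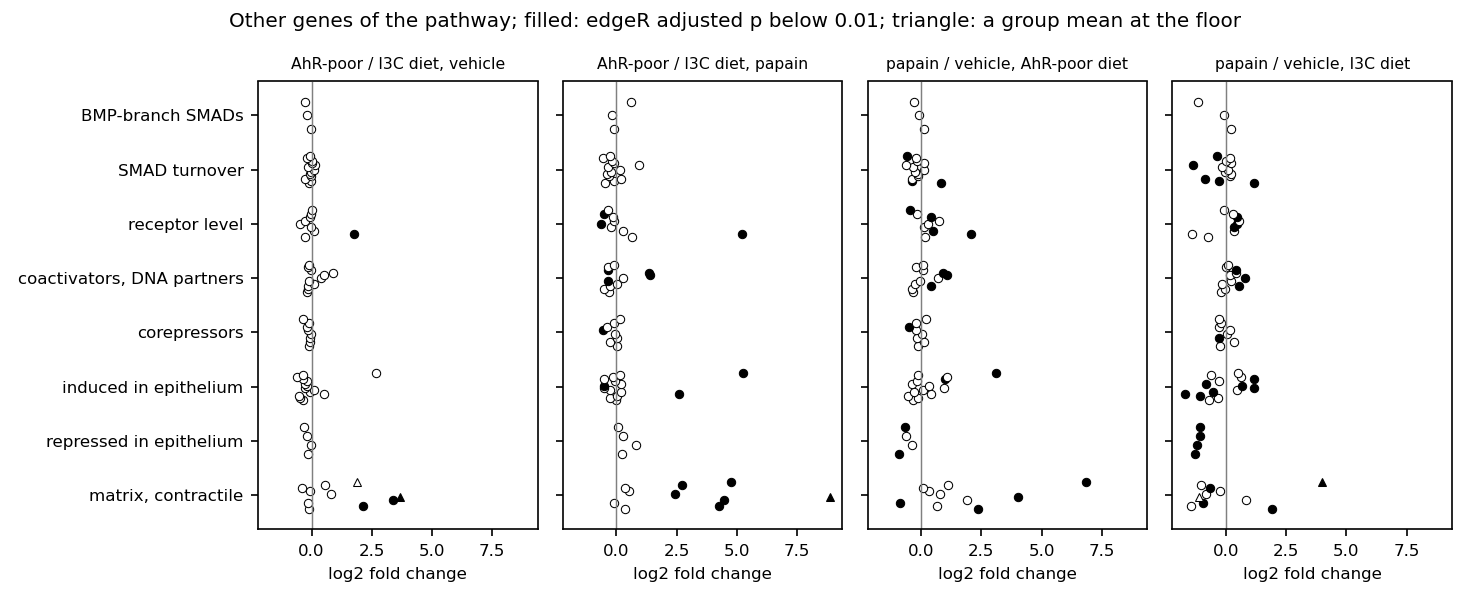
Log2 fold changes (horizontal axis) of the 72 tested pathway genes in 8 lists, from edgeR, filled where the adjusted p is below 0.01, with triangles where a group mean is at or under the detection floor, so that the fitted fold depends on the prior count. The 4 genes repressed in epithelium lie left of 0 with papain on the I3C diet, and the matrix genes spread to the right on the AhR-poor diet.

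Markers of other cell types stood at unequal levels, and the part of such cells in these results was not tested. The 10 keratinocyte markers summed to 68266 to 87385 CPM with vehicle and 48675 to 70936 CPM with papain on the AhR-poor diet. On the I3C diet they summed to 73804 to 84287 and 61009 to 73691 CPM. With papain, 2 of 10 keratinocyte markers fell and 8 did not pass on each diet. The 10 fibroblast markers summed to 112.8 to 194.6 CPM with vehicle and 285 to 687 CPM with papain on the AhR-poor diet, and to 20.3 to 25.1 and 11.9 to 27.0 CPM on the I3C diet. With papain, 10 of 10 fibroblast markers rose on the AhR-poor diet, and on the I3C diet 1 fell and 9 did not pass. The 8 macrophage markers summed to 20.1 to 30.8 CPM with vehicle and 101.2 to 510.2 CPM with papain on the AhR-poor diet, and to 7.35 to 9.91 and 7.86 to 25.2 CPM on the I3C diet. The 8 neutrophil markers summed to 1.93 to 2.57 CPM with vehicle and 40.4 to 196 CPM with papain on the AhR-poor diet, and to 0.546 to 0.952 and 20.2 to 29.5 CPM on the I3C diet. With papain, 7 of these 8 rose on the AhR-poor diet and 1 on the I3C diet, and the others did not pass. Ly6g was at 0 in both vehicle groups and with papain on the I3C diet, and Mmp8, Ltf and Fpr1 were at 0 with vehicle on the I3C diet. The 6 T cell markers summed to 74.3 to 103.6 CPM with vehicle and 163 to 225 CPM with papain on the AhR-poor diet, and to 81.9 to 106.1 and 159 to 181 CPM on the I3C diet. With papain, 1 of these 6 rose on each diet and 5 did not pass. The 6 Langerhans cell markers summed to 774 to 866 CPM with vehicle and 824 to 995 CPM with papain on the AhR-poor diet, and to 326 to 578 and 345 to 692 CPM on the I3C diet. Between the diets, 0 of these 6 passed with vehicle. With papain, 1 of the 6 was higher on the AhR-poor diet and 5 did not pass. The 8 endothelial markers summed to 15.1 to 64.8 CPM on the AhR-poor and 1.22 to 3.54 CPM on the I3C diet. On the AhR-poor diet the 6 markers of pericytes and smooth muscle summed to 208 to 295 CPM with vehicle and 185 to 223 CPM with papain. With the I3C diet they summed to 211 to 297 and 292 to 352 CPM. Between the diets with papain, 3 of these 6 were higher on the AhR-poor diet, 1 was lower and 2 did not pass. Des was at 0 in the vehicle mice on the I3C diet.

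Among 13025 other genes with at least 1 CPM on average, those whose log2 CPM followed each member most closely over the 16 libraries were named by Pearson's r, as a description of libraries that share depth and group. Smad3 was followed by Itgb1 (r = 0.97), encoding integrin β1, and Gfpt1 (r = 0.96). Tgfbi was followed by Trmt2a (r = 0.94) and Slc43a1 (r = 0.94). Skil was followed by Csrnp1 (r = 0.95) and Kdm6b (r = 0.94), and Tgif1 by Ifrd1 (r = 0.96) and Ptp4a2 (r = 0.94). Smad4 was followed by Cenpc1 (r = 0.97) and Gm26788 (r = 0.95), Ski by Cbfa2t2 (r = 0.95) and N4bp2 (r = 0.92), and Smad7 by Dnajb9 (r = 0.91) and Sf3b1 (r = 0.91). Smad2 was followed by Man1a2 (r = 0.94) and E130308A19Rik (r = 0.93), and Smad6 by Hey1 (r = 0.90), a Notch and BMP target, and Gpr3 (r = 0.87). No member was among the closest followers of another.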

How the data were processed

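Epidermal cells of 16 mice were sequenced by the authors with the TruSeq Stranded mRNA kit and aligned with STAR to mm10. The deposited values are raw counts of reads per gene without normalization. The counting tool, the annotation and the strand setting are not given in the sources used here. Symbols were found for 50376 of 50600 identifiers in GENCODE M21 (GRCm38), and 224 had none. Groups were taken from the sample labels alone.

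Genes whose counts summed to 10 or more were tested (22155), and library sizes were scaled with TMM factors. Group means were fitted over all 16 libraries in edgeR 4.0.16 (R 4.3.3) and compared with the robust quasi-likelihood F test. A gene passed when its p, adjusted by Benjamini-Hochberg, was below 0.01, and the study's threshold of a log2 fold change above 1 or below -1 was applied separately. CPM are counts scaled to the TMM-scaled library size. Exact permutation tests were two-sided, on log2 of CPM with an offset of 0.01. Library totals of 22500821 to 51844375 counts set the precision, and replicates differed by more than counting error (chi-square per degree of freedom of at least 9.43 between any 2 libraries of a group). The procedure was tested on simulated data.

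The 9 genes, the pathway lists and the cell markers were chosen with earlier results of these data known. Named from each list and comparison were at most the 3 largest changes among genes that passed with at least 1 CPM on average, and, for each member, the 2 genes with the highest correlation. Some further genes were named for a whole list, a shared change or a marker at 0 after their values were seen. The alternatives were RLE factors, unscaled library sizes, filterByExpr, every gene with at least 1 count, DESeq2 1.42.0, only the libraries compared, other thresholds, leaving out each library in turn, and leaving out T106 and T112, whose codes break the run of codes in their groups. The fit without T100 and T108 was added after seeing the data. The skin explants, flow cytometry and public data sets of the study were not analysed here. A few list genes that passed are not reported here by name.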

Additional observations from a re-analysis of the deposited data

Results flagged for a closer look

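In 2 of the 36 groups of 4 libraries (9 genes in 4 groups), 1 library stood apart from the other 3 by more than Dixon's 95% limit, which chance alone gives in about 1 in 20 groups. Both concern library T108 of the vehicle mice on the I3C diet. Its level of Skil was 164.6 CPM, and the gap to the next library was 0.916 of the range of the group. Its level of Tgif1 was 228.7 CPM, with a gap of 0.889 of the range. The cause was not tested.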

How the results depend on the processing

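The 9 genes were tested under 24 alternative fits and 2 other thresholds, and no called change turned its direction. Under the study's threshold of fold change, 0 members passed for papain on either diet, in edgeR, where 3 had passed on each. Leaving out 1 library at a time left between 1 and 3 members passing for papain on the AhR-poor diet and between 3 and 4 on the I3C diet, and 0 in both comparisons of diets and in the interaction. At an adjusted p below 0.05, 1 member (Smad2) passed between the diets with papain. With library sizes unscaled, 3 list genes instead of 6 were lower on the AhR-poor diet with papain, and the cause was not tested. Of the 1071 recomputed log2 fold changes of the members, 1052 kept their side of the threshold, and the single genes that lost or gained a call were Smad3, Smad4 and Tgif1 for papain on the AhR-poor diet and Ski for papain on the I3C diet. No paired analysis was possible because the library codes are not shared between groups. With 4 mice in a group the exact permutation test cannot go below 0.0286, and the intervals of Skil and Tgif1 stayed wide.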
